A study of Mus musculus with 16 samples.

Results

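The comparison described here sets 4 hours of c-Raf stimulation (4h) against uninduced cells (0h) in mouse embryonic stem cells. Its members were chosen by their labels: the 2 arrays of the 4h group and the 2 arrays of the 0h group, 4 of the 16 arrays of the series, paired by replicate number. All cells were E14tg2a embryonic stem cells that carry c-Raf, a kinase, as a fusion made active by tamoxifen. They were grown on gelatin in serum with the cytokine LIF, which keeps stem cells self-renewing, and RNA was measured on 1-colour arrays. The 4h cells were held for 24 hours in 250 nM PD173074, a small molecule that blocks FGF receptors, and then received 250 nM 4-hydroxytamoxifen (4OHT) for 4 hours. The 0h cells had the same 24 hours of 250 nM PD173074 and no 4OHT. Cells in vehicle without the inhibitor (DMSO) and cells given 4OHT for 2 hours (2h) or 8 hours (8h) after the same 24 hours of inhibitor are used for context, 2 arrays each. Cells given 250 nM 4OHT for 30 minutes, 1 hour or 24 hours after the same inhibitor also entered the fit, 2 arrays each. Their spread is part of the errors given below. The free-text description of the 4h samples gives minutes, while their title and time point give hours, and the title and time point were followed. Cells without the fusion, and cells given the solvent of 4OHT after the inhibitor, were not analysed here, so the action of c-Raf and any other action of 4OHT cannot be told apart.

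In an unperturbed stem cell, FGF receptors activate RAS, which recruits RAF kinases. RAF phosphorylates MEK, and MEK phosphorylates ERK, which enters the nucleus and phosphorylates transcription factors of the ETS and SRF complexes. Genes that answer without new protein synthesis are called immediate early genes. Among the later ERK targets are phosphatases and adaptor proteins that dampen the same cascade. In mouse embryonic stem cells, ERK signalling is known for moving cells out of the naive pluripotent state, and fusions of this type start the cascade at RAF, below the blocked receptor.

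Values are log2 signals relative to the 75th percentile of their array, and levels of different genes are not compared. On the 2 arrays of 4h, 58.1% and 61.8% of spots were well above background, against 60% and 67.2% at 0h, and the range over all 16 arrays was 54.9% to 67.2%. Replicates of a group correlated at 0.982 to 0.99 over genes. The series records 2 conflicting assignments of arrays to samples, and 8 of the 16 arrays are attached to another sample than the one whose values they hold. The headings of the deposited value table were followed, which put replicate 1 of every group on one slide and replicate 2 on the other. The replicate number was therefore fitted as a block. With arrays taken as attached, the 4h arrays would be the replicate 2 arrays of 0h and 4h used here and the 0h arrays the replicate 1 arrays of the same groups. The 4h against 0h difference would then be the slide difference by construction. The labels do not say whether replicates came from separate cultures, so p-values measure only the spread between these arrays, which may be technical.

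The labelled cell type was checked against defining markers. All 8 markers of embryonic stem cells were well above background on both 4h arrays and both 0h arrays, with a summed signal of 9.97 and 9.72 at 4h, against 9.59 and 9.51 at 0h, and 1 of the 8, Utf1, was called higher, as given below. Of 5 mesoderm markers, 2 were well above background on both arrays in each group, and T, Mesp1 and Mixl1 were not well above background on either 4h array. Elf5 of 6 trophectoderm markers, Pdgfra of 9 primitive endoderm markers, Olig2 of 5 neural markers and Lum and Postn of 7 fibroblast markers were also not well above background on either 4h array. The summed signal of the primitive endoderm markers was 4.93 and 4.80 at 4h, against 4.98 and 5.01 at 0h, and the 1 of 9 called, Pdgfra (limma adjusted p = 0.153 without the replicate block described below), was not well above background in either group. For trophectoderm it was 3.97 and 4.71 at 4h, against 4.06 and 5.05 at 0h, with 2 of 6 called higher, Cdx2 and 1 that did not hold without that block. For mesoderm it was 3.37 and 3.28 at 4h, against 3.19 and 3.34 at 0h, with none called. Neural markers had 2.46 and 2.94 at 4h, against 3.05 and 3.57 at 0h, with 1 of 5 called higher and 1 lower, neither without that block, and fibroblast markers had 1.58 and 1.41 at 4h, against 1.63 and 1.60 at 0h, with none called. Each sum adds signals before the log2 step, so its brightest markers set it. Cdx2, a dim marker, rose while the trophectoderm sum did not, so a level sum does not show that each marker stayed level. None of these sums separated the groups by more than 1 unit, and their part in the results below was not tested. These were measured on the mixed population, in which fewer cells of a type and less RNA per cell cannot be told apart.

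Promoter sequence was examined where genes with a known shared regulator moved. RefSeq windows on GRCm38.p6, from 250 bases before to 50 bases after a gene's start, were matched by symbol for 12433 of 15660 tested genes and searched on both strands for 7 motifs. These were the CArG box bound by SRF, the ETS motif CCGGAAG, the AP-1 motif TGACTCA, the cyclic AMP response element TGACGTCA, the sterol regulatory element, the E-box CACGTG and the NF-Y motif CCAAT. A CArG box can hold the letters CCAAT, and no other pair overlaps in that way. The CArG box was in 1.66% of tested genes with a window, in 2 of 16 immediate early transcription factors, in 1 of 18 other immediate early genes and in 1 of 18 feedback genes. The ETS motif was in 16.9% of tested genes with a window, in 1 of 16 of those transcription factors, in 3 of 18 other immediate early genes and in 1 of 18 feedback genes, and in 0 of the risers of the first and last list. The AP-1 motif was in 4.68% of tested genes and in 1, 0 and 0 genes of these 3 lists, the cyclic AMP response element in 3.26% and in 1, 3 and 3 genes, and the E-box in 10.9% and in 3, 4 and 2 genes. In these 3 lists 13 of 21, 11 of 22 and 11 of 23 tested members rose at 4h, against 7.58% of all tested genes. Rises were thus common there with or without a box, and a link of the box to a rise was not tested. Of the 4 genes of these lists with a CArG box, the 3 that rose at 4h are shown by the 100 bases before their start. The CArG box is in capitals.
Egr2 (chr10:67537466-67537565, plus strand): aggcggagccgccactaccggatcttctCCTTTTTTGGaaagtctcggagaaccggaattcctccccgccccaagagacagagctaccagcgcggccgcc
Zfp36 (chr7:28379229-28379328, minus strand): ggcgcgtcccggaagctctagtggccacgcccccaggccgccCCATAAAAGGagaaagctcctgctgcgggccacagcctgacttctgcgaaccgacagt
Dusp5 (chr19:53529045-53529144, plus strand): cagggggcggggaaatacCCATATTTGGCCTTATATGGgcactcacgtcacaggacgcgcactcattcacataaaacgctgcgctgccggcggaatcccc
The box began 72 bases before the start of Egr2 and 58 bases before the start of Zfp36. Dusp5 held 2 boxes side by side, 82 and 72 bases before its start. The NF-Y motif was in 17 of 18 cholesterol synthesis genes with a window (94.4%), against 42.6% of tested genes. All 7 with a window that rose held it, as did nearly the whole list, so it does not set the risers apart. It was also in 8 of 16 immediate early transcription factors, 11 of 18 other immediate early genes and 10 of 18 feedback genes. Of 30 ribosome biogenesis genes with a window, 11 held it, 9 the ETS motif, 6 the E-box and 0 the CArG box. Of the 7 cholesterol genes, Hmgcs1, Idi1 and Sc5d are shown in the same way, with the NF-Y motif, which reads ATTGG on this strand, in capitals.
Hmgcs1 (chr13:119690251-119690350, plus strand): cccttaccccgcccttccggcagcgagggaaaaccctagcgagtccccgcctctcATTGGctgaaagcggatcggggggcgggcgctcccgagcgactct
Idi1 (chr13:8885506-8885605, plus strand): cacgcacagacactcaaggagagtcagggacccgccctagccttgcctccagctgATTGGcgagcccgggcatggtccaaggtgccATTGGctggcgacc
Sc5d (chr9:42264301-42264400, minus strand): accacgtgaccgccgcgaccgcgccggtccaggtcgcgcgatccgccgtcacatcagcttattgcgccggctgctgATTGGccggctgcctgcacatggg
The window of Hmgcs1 held 4 matches, beginning 237, 176 and 45 bases before its start and at base 11 after it. The sterol regulatory element was found in 0 of the 18 cholesterol synthesis genes with a window and in 0.233% of tested genes. That says only that these letters are not in these windows. A match is a stretch of letters and not a measured binding site.

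Among 15660 tested genes, 1187 rose at 4h and 1321 fell, relative to 0h (limma with the replicate number as a block, Benjamini-Hochberg adjusted p under 0.05, the rule for every call below). That is 16% of tested genes, 7.58% higher and 8.44% lower. Of these, 336 rose and 375 fell by more than 2-fold, and 2507 of the 2508 had the same sign in both pairs. The calls were made from these same pairs, so that agreement is no separate support. The median change of all tested genes was 0.00, or 0.04 in replicate 1 and -0.03 in replicate 2. In 0h, 43 of the higher genes were not well above background on either array, and 63 of the lower genes were not so at 4h. The arrays of the 2 groups did not overlap in 47.6% of all tested genes, so a lack of overlap, given below for genes already called, supports nothing by itself. The size of the count rested on the design and on single arrays. Without the block it was 498 (225 higher and 273 lower, or 1.44% and 1.74%), all of them among the 2508. Leaving out 4h replicate 1 gave 297, leaving out 0h replicate 1 or 2 gave 239 or 1646, and a fit of these 4 arrays alone gave 91. Where a named gene lost its call in this comparison without the block, its p from that fit is given, and for most lists the counts in this comparison without the block are given.

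**Figure D1:**
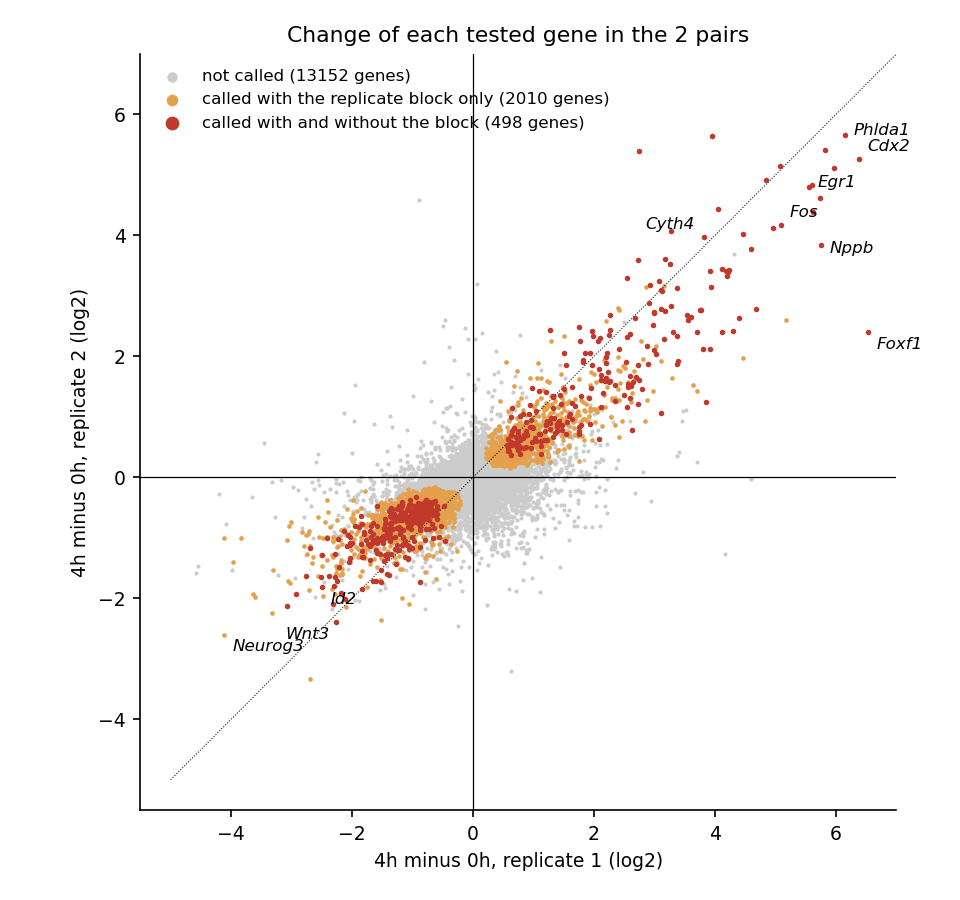
Change of each of the 15660 tested genes, 4h minus 0h on the log2 scale, in the replicate 1 pair (x axis) and the replicate 2 pair (y axis). The dotted line marks equal changes, and 498 genes were called both with and without the replicate block. The genes named at the upper right rose in both pairs, and those at the lower left fell in both.

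Immediate early transcription factors formed the list with the highest median change. Of 21 tested members, 13 rose, 0 fell and 8 were not called, and 6 of the 13 held without the block. The list median was 0.90, or 1.34 in replicate 1 and 0.60 in replicate 2. Egr1, a zinc finger factor, had 6.81 and 5.54 at 4h, against 1.25 and 0.74 at 0h, a rise of 5.18 ± 0.28 (standard error of the fit, n = 2 arrays per group here and below; limma adjusted p = 3.63e-05). Fos, which pairs with Jun proteins to form AP-1, had 2.47 and 1.30 at 4h, against -2.62 and -2.86 at 0h, a rise of 4.63 ± 0.32 (adjusted p = 0.000125). Both 4h arrays of each gene lay far above both 0h arrays. Egr2, whose CArG box is shown above, had -0.33 and -1.56 at 4h, against -5.30 and -5.68 at 0h. At 0h it was not well above background on either array, so its rise is a bound of at least 18.7-fold (adjusted p = 0.000127). Fosl1, another partner of Jun, had 0.61 and -0.54 at 4h, against -3.68 and -2.97 at 0h, a rise of 3.36 ± 0.59 (adjusted p = 0.00842). Leaving out 1 array at a time left 4 to 12 members higher, and Egr1, Fos and Egr2 kept their calls without each of the 4 arrays in turn. Leaving out 4h replicate 1 or 0h replicate 1 ended the call of Fosl1.

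Immediate early genes with other functions split more. Of 22 tested, 11 rose, 3 fell and 8 were not called (5 and 1 without the block), and the median change was 0.55. Arc, a protein that binds the cytoskeleton and is best known from neurons, had 6.64 and 5.21 at 4h, against 2.71 and 2.07 at 0h, a rise of 3.53 ± 0.32 (limma adjusted p = 0.00042). Zfp36l1 and Zfp36 encode proteins that bind AU-rich messages and speed their decay. Zfp36l1 had 4.75 and 4.16 at 4h, against 2.54 and 2.10 at 0h, a rise of 2.14 ± 0.18 (adjusted p = 0.000349). Zfp36 had -1.61 and -2.18 at 4h, against -4.22 and -3.69 at 0h, a rise of 2.06 ± 0.31 (adjusted p = 0.00492). The pseudokinase gene Trib1 had 2.26 and 1.18 at 4h, against 0.09 and -0.76 at 0h, a rise of 2.06 ± 0.14 (adjusted p = 0.000126, and 0.103 without the block). In all 4 genes the 2 groups did not overlap. The 3 that fell did so by less than 1 unit: Gdf15, a secreted stress factor, by 0.78 ± 0.14 (adjusted p = 0.0104), Rhob, a small GTPase, by 0.73 ± 0.21 and Mcl1, which guards against apoptosis, by 0.30 ± 0.08. The falls of Rhob and Mcl1 (adjusted p = 0.0459 and 0.0391) did not hold without the block (adjusted p = 0.342 and 0.555). Members called higher numbered 5 to 9 when 1 array was left out, fewest without 0h replicate 1. Without one or the other replicate 1 array, the call of Zfp36 was lost. For Gdf15, Rhob and Mcl1, leaving out a replicate 2 array also ended the call.

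Inhibitors that ERK signalling switches on against itself held some of the top rises of the comparison. Of 23 tested phosphatases, Sprouty and Spred proteins and other feedback inhibitors, 11 rose, 3 fell and 9 were not called (9 and 0 without the block), and the median change was 0.73. Phlda1, a pleckstrin homology domain protein, had 5.53 and 4.49 at 4h, against -0.62 and -1.17 at 0h, a rise of 5.90 ± 0.32 or 59.9-fold (limma adjusted p = 3.43e-05). Dusp4 and Dusp2 are nuclear phosphatases of ERK. Dusp4 had 3.67 and 2.47 at 4h, against -1.40 and -2.66 at 0h, a rise of 5.10 ± 0.20 (adjusted p = 1.14e-05). Dusp2 had 1.5 and 1.66 at 4h, against -2.55 and -2.78 at 0h, a rise of 4.24 ± 0.27 (adjusted p = 7.6e-05). Spry4, a Sprouty protein that acts between receptor and RAF, had 2.37 and 1.95 at 4h, against -2.49 and -2.96 at 0h, a rise of 4.88 ± 0.36 (adjusted p = 0.000143). Dusp6, the cytoplasmic ERK phosphatase, had 5.83 and 5.05 at 4h, against 2.66 and 1.44 at 0h, a rise of 3.39 ± 0.24 (adjusted p = 0.000127). These 5 genes had no overlap between the groups and kept their calls without each array in turn. Dusp5, a nuclear ERK phosphatase named for its promoter and not by the rule for named genes, had -0.64 and -1.76 at 4h, against -4.34 and -4.17 at 0h, a rise of 3.06 ± 0.47 (adjusted p = 0.00511). The 3 lower members were the phosphatase Dusp7 (a fall of 0.88 ± 0.22), Lrig1, which restrains ErbB receptors (0.76 ± 0.18), and Rasal1, a RAS GTPase-activating protein (0.60 ± 0.15). These 3 (adjusted p = 0.0282, 0.0245 and 0.027) did not hold without the block (adjusted p = 0.0698, 0.321 and 0.0738). The call of Dusp5 ended when 4h replicate 1 or 0h replicate 1 was left out. That of Dusp7, Lrig1 and Rasal1 also ended without a replicate 2 array.

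**Figure D2:**
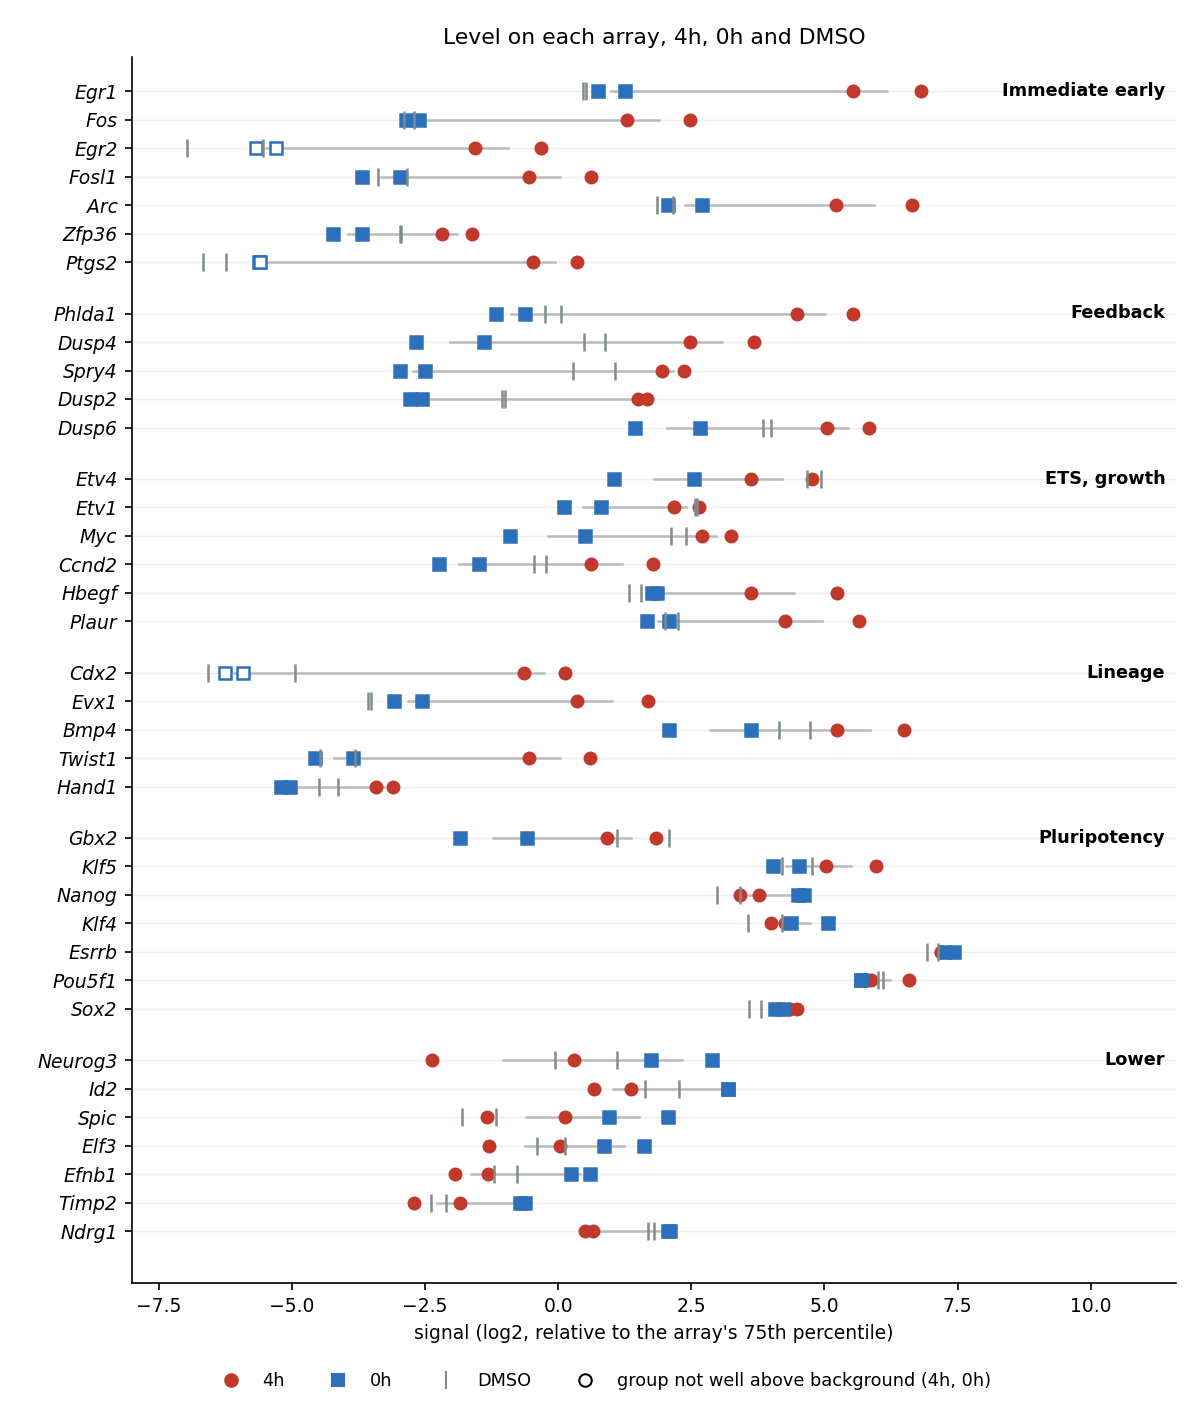
Level of 37 genes on each array, in log2 signal relative to the array's 75th percentile, with 1 row per gene. Circles are the 2 arrays at 4h, squares the 2 at 0h and ticks the 2 in DMSO, the grey line joins the 4h and 0h means, and open symbols mark a group not well above background. The circles lie to the right of the squares for the immediate early, feedback, growth and lineage genes, to the left for the lowest block, and close to the squares for Esrrb and Sox2.

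Transcription factors of the ETS family include direct ERK targets of the PEA3 group. Of 16 tested, 5 rose, 2 fell and 9 were not called (2 and 0 without the block), with a median of 0.08. Etv4 had 4.76 and 3.63 at 4h, against 2.56 and 1.04 at 0h, a rise of 2.40 ± 0.28 (limma adjusted p = 0.00178, and 0.113 without the block). Etv1 had 2.65 and 2.17 at 4h, against 0.80 and 0.11 at 0h, a rise of 1.95 ± 0.18 (adjusted p = 0.000469). Etv6, a repressor of the family, rose by 1.31 ± 0.16 and Erf, a repressor that ERK exports from the nucleus, by 0.75 ± 0.16 (adjusted p = 0.00209 and 0.0164), and the rise of Etv6 did not hold without the block (adjusted p = 0.0603). The 2 that fell were members of other branches. Spic, of the Spi group, had -1.33 and 0.13 at 4h, against 0.95 and 2.06 at 0h, a fall of 2.10 ± 0.40 (adjusted p = 0.0111, and 0.242 without the block). Elf3, an epithelial factor, had -1.30 and 0.04 at 4h, against 0.87 and 1.61 at 0h, a fall of 1.87 ± 0.25 (adjusted p = 0.0032, and 0.156 without the block). In these 4 genes the groups did not overlap. Leaving out 4h replicate 1 or 0h replicate 1 ended the call of Erf and Spic.

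Of 21 RAS, RAF, MEK and ERK genes, 2 rose and 1 fell (0 without the block), and 14.3% of the list was called, against 16% of all tested genes. Among 9 EGF family ligands and ErbB receptors, 2 were called higher and 2 lower (44.4% of the list, and 1 and 0 without the block), and 1 of the higher ones, the ligand Areg (limma adjusted p = 0.0929 without the block), was not well above background in either group. Hbegf, a membrane-bound ligand of the EGF receptor, had 5.23 and 3.63 at 4h, against 1.86 and 1.76 at 0h, a rise of 2.62 ± 0.39 (limma adjusted p = 0.00448). Egfr, its receptor, had -2.05 and -2.44 at 4h, against -1.34 and -1.96 at 0h, a fall of 0.60 ± 0.15 (adjusted p = 0.031, and 0.299 without the block). Of 15 FGF ligands and receptors, 1 rose and 2 fell (20% of the list), and none held without the block. In prostaglandin synthesis, Ptgs2, the inducible cyclooxygenase, had 0.36 and -0.48 at 4h, against -5.61 and -5.60 at 0h. It was not well above background on either 0h array, and rose at least 34.6-fold (adjusted p = 0.000241), the top bound of the comparison. Ptger2, a receptor for prostaglandin E2, was well above background on 1 of the 2 arrays at 0h. It had -1.38 and -1.07 at 4h, against -4.65 and -5.14 at 0h, a fitted rise of 3.67 ± 0.23 (adjusted p = 7.6e-05) whose size is limited by that. Those were the 2 of 15 members that rose, with 1 lower that did not hold without the block, and both rises held without the block and without each array in turn. Without one or the other replicate 1 array, the call of Hbegf was lost. For Egfr, leaving out a replicate 2 array also ended the call.

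Growth genes moved in both directions. Of 25 cyclins, Cdk inhibitors and Myc network members, 4 rose, 4 fell and 17 were not called (2 and 0 without the block). The list median was 0.00, and 32% of the list was called. Myc had 3.25 and 2.70 at 4h, against 0.51 and -0.90 at 0h, a rise of 3.17 ± 0.27 (limma adjusted p = 0.000362). Ccnd2, a D-type cyclin, had 1.79 and 0.61 at 4h, against -1.48 and -2.23 at 0h, a rise of 3.06 ± 0.29 (adjusted p = 0.000539). Neither overlapped between the groups. The Myc antagonists Mxd3 and Mxd4 fell by 0.67 ± 0.15 and 0.41 ± 0.12, and Cdkn1b, the Cdk inhibitor p27, by 0.47 ± 0.10, with adjusted p = 0.021, 0.0482 and 0.0165, and all 3 were lost without the block (adjusted p = 0.177, 0.146 and 0.0598). The call of Mxd3 ended when 4h replicate 1 or 0h replicate 1 was left out. That of Mxd4 and Cdkn1b also ended without a replicate 2 array.

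Ribosome biogenesis genes, which make ribosomal RNA and assemble the subunits, had the most called members of any list: 24 of 35 rose, 0 fell and 11 were not called. The changes were small, with a list median of 0.42 (0.52 in replicate 1 and 0.32 in replicate 2). The RNA helicase gene Ddx21 had 5.45 and 4.62 at 4h, against 4.26 and 3.93 at 0h, a rise of 0.94 ± 0.22 (limma adjusted p = 0.0243). Rrs1, a factor of large subunit assembly, had 4.40 and 3.98 at 4h, against 3.73 and 3.41 at 0h, a rise of 0.62 ± 0.08 (adjusted p = 0.00316). In both genes the 4h arrays lay above the 0h arrays by less than 2 units. This count depends on the block and on replicate 1: 0 were called without the block (limma adjusted p = 0.14 for Ddx21 and 0.157 for Rrs1), 1 without 4h replicate 1, 1 without 0h replicate 1 and 13 without either replicate 2 array. The housekeeping list also stood above 0, with a median of 0.21 and 2 of 14 higher (0 without the block), and under quantile normalization the 2 medians were 0.26 for ribosome biogenesis and 0.05 for housekeeping. Amino acid transporters had 4 of 13 higher and 0 lower, with a median of 0.28 and none called without the block. A replicate 2 array was also needed for Ddx21.

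Part of the cholesterol synthesis and uptake genes rose, in small steps. Of 26 tested, 12 rose, 0 fell and 14 were not called, with a median of 0.39. Hmgcs1, which makes HMG-CoA, had 4.88 and 5.10 at 4h, against 4.20 and 4.28 at 0h, a rise of 0.75 ± 0.08 (limma adjusted p = 0.00121). Sc5d, a late enzyme of the sterol ring, had 1.56 and 1.25 at 4h, against 0.59 and 0.41 at 0h, a rise of 0.91 ± 0.16 (adjusted p = 0.00816). These were the 2 members that held without the block. Idi1, which isomerises isopentenyl diphosphate, had 4.12 and 3.83 at 4h, against 3.19 and 3.18 at 0h, a rise of 0.79 ± 0.17 (adjusted p = 0.0178, and 0.0639 without the block). None of the 3 overlapped between the groups. The number called was 1 without 4h replicate 1 and 1 without 0h replicate 1. Of 15 fatty acid synthesis genes, 1 rose, the malic enzyme gene Me1 by 0.71 ± 0.13 (adjusted p = 0.00939, and 0.0922 without the block). Without one or the other replicate 1 array, the call of Sc5d, Idi1 and Me1 was lost.

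No naive pluripotency gene was called lower at this time. Of 24 tested, 5 rose, 0 fell and 19 were not called (1 and 0 without the block), with a median of -0.12. Nanog had 3.41 and 3.77 at 4h, against 4.5 and 4.61 at 0h, a difference of -0.96 ± 0.75 (limma adjusted p = 0.414). Both 4h arrays lay below both 0h arrays, but its error is wide. The spread behind that error was estimated over all 8 groups, and the 2 Nanog arrays lay closer together at 4h and at 0h than at later times. They had 2.37 and 3.48 at 8h and -1.75 and 1.58 at 24h. At 24h Klf4 had 0.24 and 2.26, and Esrrb 4.61 and 6.07. Klf4 differed by -0.60 ± 0.60 (adjusted p = 0.53) and Esrrb, an orphan nuclear receptor, by -0.16 ± 0.37 (adjusted p = 0.817). A p above the threshold does not show that these 3 stayed level. Gbx2, a homeobox gene, had 1.83 and 0.91 at 4h, against -0.59 and -1.85 at 0h, a rise of 2.59 ± 0.20 (adjusted p = 0.000194, and 0.0978 without the block). Klf5, a Kruppel-like factor, had 5.97 and 5.02 at 4h, against 4.52 and 4.04 at 0h, a rise of 1.22 ± 0.16 (adjusted p = 0.0032, and 0.172 without the block). The member that held without the block was the lysosomal enzyme gene Manba, with 3.81 and 3.07 at 4h, against 1.54 and 0.64 at 0h, a rise of 2.35 ± 0.32 (adjusted p = 0.00334).

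Of 17 core and general pluripotency genes, 6 rose, 0 fell and 11 were not called (1 and 0 without the block), with a median of 0.35. Utf1, a chromatin-bound protein, had 6.42 and 6.05 at 4h, against 5.63 and 4.72 at 0h, a rise of 1.06 ± 0.20 (limma adjusted p = 0.0116, and 0.209 without the block). Pou5f1, the gene for Oct4, differed by 0.55 ± 0.24 and Sox2, its partner, by 0.28 ± 0.12 (adjusted p = 0.152 and 0.143). Of 20 formative genes, known from epiblast that has just left the naive state, 5 rose and 1 fell (1 and 0 without the block), with a median of 0.45. Wt1, a zinc finger factor, had 0.02 and -1.06 at 4h, against -2.24 and -2.66 at 0h, a rise of 1.93 ± 0.19 (adjusted p = 0.000656). Pou3f1, a POU-domain factor, had 2.75 and 1.34 at 4h, against 0.46 and 0.04 at 0h, a rise of 1.80 ± 0.32 (adjusted p = 0.00871, and 0.0786 without the block). The lower member was the DNA methyltransferase gene Dnmt3a, by 0.59 ± 0.13 (adjusted p = 0.019, and 0.0614 without the block). Leaving out 4h replicate 1 or 0h replicate 1 ended the call of Pou3f1 and Dnmt3a. A replicate 2 array was also needed for Utf1.

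Lineage genes went both ways. Cdx2, a homeobox gene known from trophectoderm and the tail end of the embryo, had 0.12 and -0.65 at 4h, against -6.26 and -5.91 at 0h, and from a level not well above background at 0h it rose at least 30-fold (limma adjusted p = 0.000529). Of 17 trophectoderm and trophoblast genes, 4 rose, 3 fell and 10 were not called (2 and 1 without the block), with a median of 0.00. Elf5, a defining trophectoderm gene, was not well above background at 4h. Hand1, a factor of trophoblast and mesoderm, was well above background on 1 array at 0h and on both at 4h. It had -3.10 and -3.42 at 4h, against -5.21 and -5.03 at 0h, a fitted rise of 1.86 ± 0.29 (adjusted p = 0.00522) whose size is limited by that. Id2, an inhibitor of basic helix-loop-helix factors, had 0.68 and 1.37 at 4h, against 3.18 and 3.19 at 0h, a fall of 2.16 ± 0.26 (adjusted p = 0.00184). Ascl2, a helix-loop-helix factor of trophoblast, had -0.96 and 0.07 at 4h, against 0.95 and 1.38 at 0h, a fall of 1.61 ± 0.15 (adjusted p = 0.000528, and 0.0672 without the block). In these 4 genes the groups did not overlap. Hand1 lost its call without 4h replicate 1 or 0h replicate 1, and the other 3 kept theirs without each array in turn.

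Of 25 primitive streak and mesoderm genes, 6 rose, 4 fell and 15 were not called (3 and 2 without the block). T, Mesp1 and Mixl1, 3 of the 5 mesoderm markers, were not well above background. Sp5 rose by 2.30 ± 0.34 (limma adjusted p = 0.00439), also called without the block. Eomes rose by 1.04 ± 0.24 (limma adjusted p = 0.022, and 0.0803 without the block). For these 2, calls with single arrays left out are not given. Evx1, a homeobox gene of the streak, had 1.68 and 0.35 at 4h, against -2.55 and -3.08 at 0h, a rise of 3.83 ± 0.27 (limma adjusted p = 0.000125). Bmp4, a secreted growth factor, had 6.49 and 5.23 at 4h, against 3.63 and 2.08 at 0h, a rise of 3.0 ± 0.21 (adjusted p = 0.000131, and 0.0649 without the block). Foxf1, a forkhead factor of lateral mesoderm, had -0.72 and -3.00 at 4h, against -7.25 and -5.41 at 0h, at least 9.92-fold higher, but it lost its call without 4h replicate 1 or 0h replicate 1 (adjusted p = 0.00849). Wnt3, a Wnt ligand of the streak, had -6.63 and -5.98 at 4h, against -4.36 and -3.59 at 0h. It was not well above background at 4h and was at least 1.89-fold lower (adjusted p = 0.000713). Twist1, a helix-loop-helix factor of mesenchyme, had 0.60 and -0.54 at 4h, against -3.86 and -4.57 at 0h, a rise of 4.24 ± 0.52 (adjusted p = 0.00207), and Pdgfrb, a growth factor receptor of mesenchyme, was at least 3.24-fold lower (adjusted p = 0.0167). Those 2 were the called members among 16 fibroblast and mesenchyme genes. Of 21 primitive endoderm genes 0 were called higher and 2 lower (9.52% called), 1 of them Pdgfra, not well above background in either group, and of 13 neural genes 2 rose and 2 fell, with none of these 6 called without the block. Without one or the other replicate 1 array, the call of Pdgfrb was lost.

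Other top rises belonged to genes of mixed function. Lor, the gene for loricrin of the skin's cornified layer, had 4.15 and 2.83 at 4h, against -1.67 and -2.58 at 0h, a rise of 5.61 ± 0.25 (limma adjusted p = 1.86e-05). Vgf, a secreted neuropeptide precursor, had 2.86 and 2.23 at 4h, against -2.76 and -2.16 at 0h, a rise of 5.0 ± 0.48 (adjusted p = 0.000583). Nppb, the natriuretic peptide precursor, had 3.43 and 1.51 at 4h, against -2.34 and -2.33 at 0h, a rise of 4.80 ± 0.63 (adjusted p = 0.00301). Slc26a2, a sulfate transporter, rose by 4.18 ± 0.40 and the predicted gene Gm13889 by 5.23 ± 0.45 (adjusted p = 0.000539 and 0.000347). All 5 had both 4h arrays above both 0h arrays and held without the block and without each array in turn. Sgms2, a sphingomyelin synthase, and Aldh1a3, which makes retinoic acid, were not well above background at 0h and rose at least 28.1-fold and at least 11.7-fold (adjusted p = 0.000471 and 0.000347). Plaur, the urokinase receptor, had 5.65 and 4.26 at 4h, against 2.08 and 1.66 at 0h, a rise of 3.08 ± 0.31 (adjusted p = 0.000743). It was 1 of 3 higher members among 22 protease and migration genes, of which 2 fell (2 and 1 without the block). Of those 2, Timp2, an inhibitor of matrix proteases, had -2.71 and -1.85 at 4h, against -0.62 and -0.71 at 0h, a fall of 1.62 ± 0.25 (adjusted p = 0.00507), lost without 4h replicate 1 or 0h replicate 1.

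The top falls were smaller than the top rises, and several did not hold without the block. Neurog3, a helix-loop-helix factor of endocrine lineages, had -2.37 and 0.29 at 4h, against 1.75 and 2.89 at 0h, a fall of 3.36 ± 0.43 (limma adjusted p = 0.00286, and 0.171 without the block). Its 2 arrays at 4h lay further apart than its 2 arrays at 0h, though the groups did not overlap. Ackr3, a scavenging chemokine receptor, had -3.38 and -1.45 at 4h, against -0.35 and 0.30 at 0h, a fall of 2.38 ± 0.40 (adjusted p = 0.0072, and 0.107 without the block). Efnb1, a membrane-bound ephrin ligand, had -1.94 and -1.32 at 4h, against 0.25 and 0.60 at 0h, a fall of 2.05 ± 0.11 (adjusted p = 3.43e-05). Nod1, an innate immune sensor, had -2.13 and -1.62 at 4h, against 0.38 and 0.02 at 0h, a fall of 2.08 ± 0.32 (adjusted p = 0.0054). G0s2, an inhibitor of lipolysis, and Plekhg6, a guanine nucleotide exchange factor, fell by 2.05 ± 0.27 and 2.01 ± 0.26 (adjusted p = 0.00307 and 0.00286). Efnb1, G0s2 and Plekhg6 kept their calls without each array in turn, while Nod1 lost its call without 4h replicate 1 or 0h replicate 1. Falls that ended below background had small bounds, at least 3.05-fold for the phosphatase gene Ppm1e (adjusted p = 0.00292) and at least 2.86-fold for the homeobox gene Hoxb13 (adjusted p = 0.00133, and 0.0604 without the block). The call of Ackr3 ended when 4h replicate 1 or 0h replicate 1 was left out.

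Other signalling and stress lists had 0 to 3 members called in each direction, and their shares are given beside the 16% of all tested genes. In the BMP list (15.4% called, 2 higher and 0 lower with and without the block), the helix-loop-helix inhibitors Id1 and Id3 rose by 1.77 ± 0.31 and 2.00 ± 0.43 (limma adjusted p = 0.00806 and 0.0169) while Id2 fell, as given above. Both rises were lost without 4h replicate 1 or 0h replicate 1, which left 0 of the 13 tested members higher, and that of Id3 also without 0h replicate 2. Tgfbr2, a TGF-beta receptor, had -0.60 and -0.98 at 4h, against -3.01 and -3.12 at 0h, a rise of 2.27 ± 0.37 (adjusted p = 0.00624), in a list with 3 of 17 higher and 1 lower (23.5% called, and 1 and 0 without the block). In the retinoic acid list, 2 of 17 rose and 3 fell (29.4% called, and 1 and 2 without the block), among them Dhrs3, which turns retinal back to retinol, by 1.58 ± 0.22 (adjusted p = 0.00383). Of 24 glycolysis and hypoxia genes, 2 rose and 2 fell (16.7% called, and 0 and 1 without the block), and Ndrg1, a hypoxia-responsive gene, had 0.65 and 0.50 at 4h, against 2.07 and 2.10 at 0h, a fall of 1.51 ± 0.15 (adjusted p = 0.000588). Of 13 p53 targets, 1 rose and 2 fell (23.1% called, and 1 and 0 without the block), the riser being Pmaip1, the pro-apoptotic Noxa, by 2.04 ± 0.20 (adjusted p = 0.000601). Of 20 genes of the unfolded protein and ATF4 response, 3 rose and 0 fell (15% called, and 1 and 0 without the block), and Xbp1, a factor of that response, rose by 0.81 ± 0.18 (adjusted p = 0.0208). In 20 SRF and actin genes 3 rose and 0 fell (15% called, and 1 and 0 without the block). In 20 mitosis and replication genes 2 rose and 0 fell (10% called), in 21 Wnt genes 0 rose and 2 fell (9.52%), in 11 LIF and STAT3 genes 1 rose and 1 fell (18.2%), in 13 interferon genes 1 rose and 2 fell (23.1%) and in 11 heat shock genes 2 rose and 0 fell (18.2%). None of the calls in these 5 lists held without the block, and in 9 Hox genes none was called. Without one or the other replicate 1 array, the call of Tgfbr2 and Dhrs3 was lost. For Xbp1, leaving out a replicate 2 array also ended the call.

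**Figure D3:**
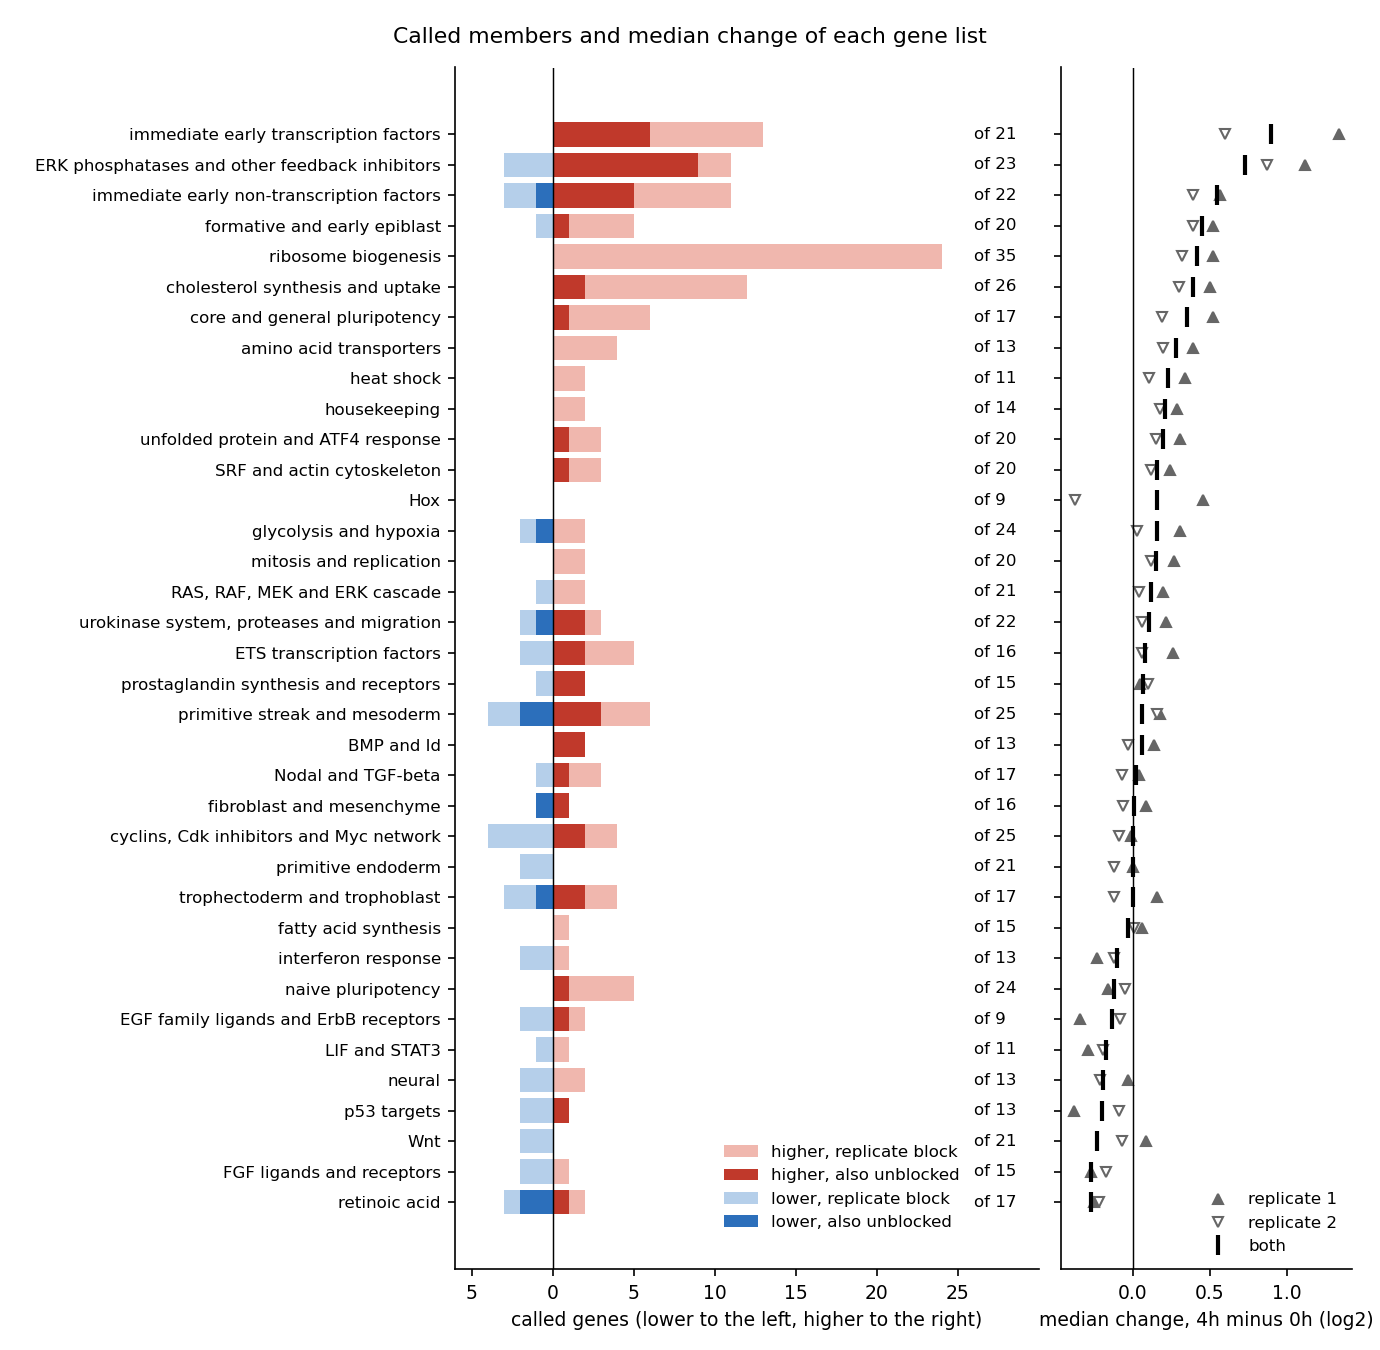
Left, the number of genes called lower (bars to the left) and higher (bars to the right) at 4h than at 0h in each of 36 lists, with the number tested at the right edge; dark bars also held without the replicate block. Right, the median log2 change of the tested members in replicate 1, replicate 2 and both. Ribosome biogenesis has the longest bar with no dark part, and the immediate early and feedback lists have the highest medians.

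The same 4h arrays were set against DMSO, where FGF receptors were not blocked, to place each level beside that of untreated signalling. The 2 comparisons share the 4h arrays, so the values are given side by side. Here 3551 of 15660 genes were called (22.7%, with 1801 higher, 11.5%, and 1750 lower, 11.2%), and 1297 without the block (8.28%, or 4.07% higher and 4.21% lower). It was 1277 without 4h replicate 1, 2344 without the other 4h array, and 1669 and 2268 without DMSO replicate 1 and 2. Several genes stood well above DMSO as well as above 0h. Egr1 had 6.81 and 5.54 at 4h, against 0.52 and 0.46 in DMSO, a difference of 5.68 ± 0.28, and Phlda1 had 5.53 and 4.49 at 4h, against 0.05 and -0.24 in DMSO, a difference of 5.10 ± 0.32 (limma adjusted p = 3.12e-05 and 4.01e-05). Spry4 was higher than in DMSO by 1.49 ± 0.36 and Dusp2 by 2.60 ± 0.27 (adjusted p = 0.0172 and 0.00049). Dusp6 was higher by 1.52 ± 0.24, a call lost without the block (adjusted p = 0.00297, and 0.153 without it).

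Other genes that rose over 0h were not called against DMSO. Etv4 had 4.76 and 3.63 at 4h, against 4.93 and 4.68 in DMSO, a difference of -0.61 ± 0.28. Etv1 differed from DMSO by -0.18 ± 0.18, Gbx2 by -0.22 ± 0.20, Pou3f1 by -0.74 ± 0.32, Myc by 0.71 ± 0.27 and Pmaip1 by 0.06 ± 0.20 (limma adjusted p from 0.0935 for Myc to 0.861 for Pmaip1 among these 5, and 0.158 for Etv4). With 2 arrays a group these intervals do not show equal levels. Wt1 was still below DMSO by 1.41 ± 0.19, with 0.02 and -1.06 at 4h, against 1.02 and 0.76 in DMSO (adjusted p = 0.0015, and 0.0593 without the block). Id2 had fallen below 0h and was also lower than in DMSO, where it had 1.64 and 2.27, by 0.93 ± 0.26 (adjusted p = 0.0299, and 0.205 without the block). Spic differed from DMSO by 0.88 ± 0.40 and Elf3 by -0.49 ± 0.25. Against DMSO, the formative list had 1 of 20 higher and 8 lower, and the naive list 5 of 24 higher and 1 lower. Over all tested genes the shares were 11.5% higher and 11.2% lower. These are counts with the block, and the list counts without it were not taken for this comparison.

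Between 2h and 4h the number of called genes was small. Relative to 2h, 63 genes rose at 4h and 20 fell (0.53% of 15660, or 0.402% and 0.128%), and 1 was called without the block (0.00639%), the gene Cyth4, against 83 with it. Leaving out 4h replicate 1 gave 15, and leaving out 2h replicate 1 or 2 gave 30 or 35. Aldh1a3, Cdx2 and Nppb rose further, by 3.44 ± 0.41, 4.26 ± 0.55 and 3.97 ± 0.63, none of them without the block (limma adjusted p = 0.0672, 0.163 and 0.163). Phlda1 rose by 2.00 ± 0.32 and Wt1 by 2.05 ± 0.19, with the same limit (adjusted p = 0.265 and 0.173). Egr1 and Fos differed from 2h by -0.20 ± 0.28 and -0.22 ± 0.32 and were not called. Of 4 lists with many members called against 0h, feedback inhibitors had 4 members higher at 4h than at 2h and 0 lower, immediate early transcription factors 0 and 0, cholesterol genes 0 and 0 and ribosome biogenesis genes 0 and 0.

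At 8h, 683 genes stood above 4h and 649 below it (8.51%, or 4.36% and 4.14%), and 176 were called without the block (1.12%). The count was 171 or 547 when 4h replicate 1 or 2 was left out and 224 when 8h replicate 1 was. Of the cholesterol list 0 were higher and 4 lower at 8h. Hmgcs1 had 4.46 and 4.49 at 8h, against 4.88 and 5.10 at 4h, a fall of 0.51 ± 0.08 (limma adjusted p = 0.00906, and 0.0952 without the block). Dnmt3a had -0.51 and -0.89 at 8h, against -2.09 and -2.05 at 4h, and was higher by 1.37 ± 0.13 (adjusted p = 0.00124). Ndrg1 was higher by 1.58 ± 0.15 and so turned round after its fall at 4h (adjusted p = 0.00116). Etv4 and Aldh1a3 rose further, by 1.27 ± 0.28 and 2.61 ± 0.41 (adjusted p = 0.0296 and 0.00828, and 0.506 and 0.0294 without the block).

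Cyth4, an exchange factor for ARF GTPases, was highest at 4h among these times. Its arrays had -3.35 and -3.48 at 0h, -2.80 and -2.62 at 2h, 0.46 and 0.49 at 4h, and -3.05 and -2.72 at 8h. The 4h level was 3.90 ± 0.25 above 0h and 3.19 ± 0.25 above 2h, and the 8h level lay below it by 3.36 ± 0.25 (limma adjusted p = 8.75e-05, 0.00287 and 0.000527). All 3 differences held without the block, and the one from 0h held without each array in turn. It rests on 1 probe. Lor was lower at 8h than at 4h by 2.43 ± 0.25 and Foxf1 by 3.05 ± 0.79, neither without the block (adjusted p = 0.0891 and 0.0906).

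**Figure D4:**
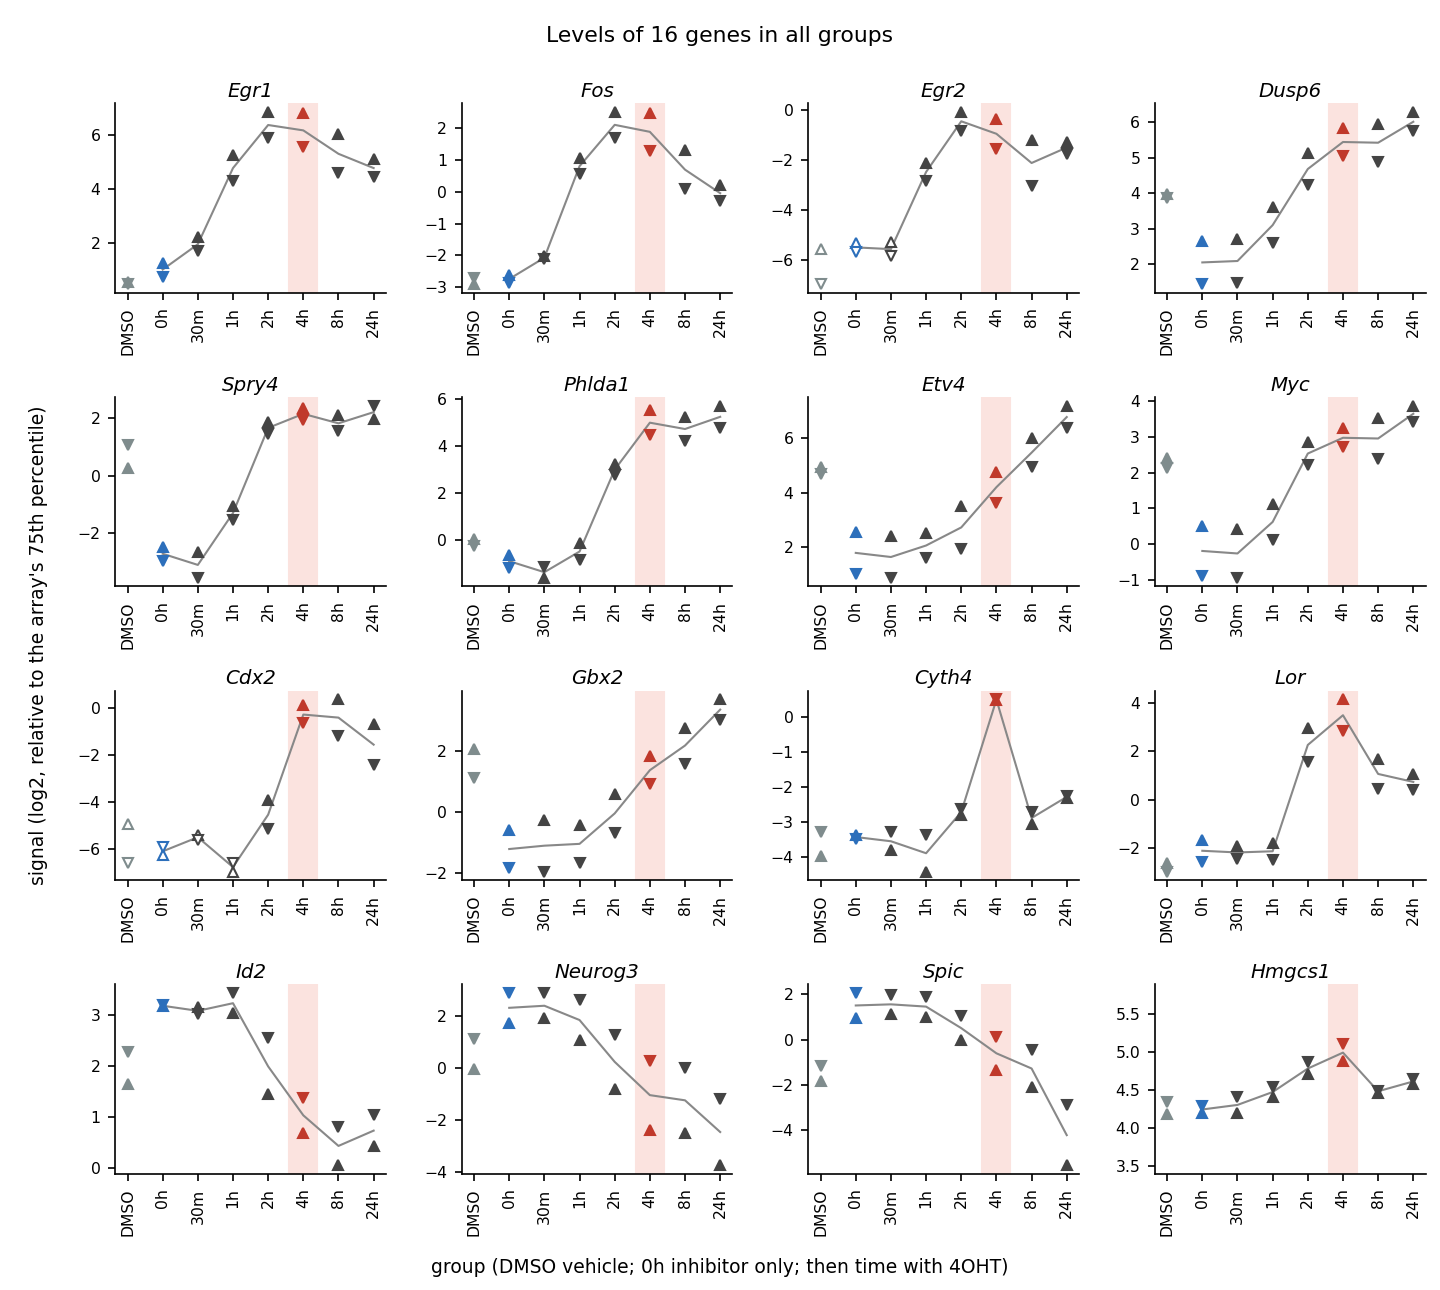
Level of 16 genes on every array of the series, in log2 signal relative to the array's 75th percentile, with DMSO at the left and then 0h to 24h. Upward triangles are replicate 1, downward triangles replicate 2, the line joins the group means from 0h on, 4h is shaded, and open triangles mark a group not well above background. Egr1 and Fos are near their top at 2h and 4h, Etv4 and Gbx2 are still climbing at 4h, Cyth4 is high at 4h alone, and Id2, Neurog3 and Spic are below their 0h level at 4h.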

How the data were processed

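RNA of 16 samples was hybridised to 1-colour Agilent arrays. The deposited scanner files hold intensity values from Agilent Feature Extraction 11.0.1.1 with mm9 annotation, per the file headers; the labels name Cy5, while the files hold a green channel. Each column of the authors' deposited value table equals the processed intensity of 1 scanner file within 0.6%, for 100% of probes, and at most 4.99% for any other file, which gave the sample of each array. Processed signals were put on a log2 scale from the deposited intensities and set to each array's 75th percentile (441 to 653). Control and outlier spots were left out (147 to 240 outlier spots an array), and no spot was saturated. Probes were named by accession through RefSeq (27656 of 55681 probes with 1 gene, 28025 with none and 0 with several), and the brightest probe stood for each of 20972 genes. Genes were tested where at least 1 group had both arrays well above background. limma 3.58.1 in R 4.3.3 fitted 8 groups and the replicate number over 16 arrays, with Benjamini-Hochberg adjustment within each comparison. Precision is limited by 2 arrays per group. Slide differences of same-numbered 4h and 0h arrays correlated at 0.53 over genes, and at 0.33 to 0.66 over the 28 pairs of groups. A value of at least N-fold sets the bright group's mean against the lowest signal well above background where the other group has only a bound. The normexp alternative used the median signal, in place of the planned mean signal, which was not used here. Named were, per direction, the 12 top called genes, the 6 top bounds, up to 4 called genes per list, 17 genes always given and the 5 top genes per step; a choice among these is printed, and some genes are not reported here. The comparison, the 36 lists and the rule were chosen with earlier results of these data known. The alternatives were the block, samples in the fit, background correction, scaling, filter, 2-fold minimum, probe choice, value table, array assignment and each array left out. The fit was tested on simulated data with independent noise and an additive slide shift per gene. That is the model that was fitted, so this checks the code and not the calls made here.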

Additional observations from a re-analysis of the deposited data

Results flagged for a closer look

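The array also carries probes named for a genomic interval on mm9 and for no gene, which the comparison of genes did not use. Of 8023 tested, 115 were called at 4h against 0h (70 higher and 45 lower, 1.43%), and 12 without the replicate block. In 8 intervals at least 3 probes were called, all of them higher, and all 8 are given for that reason. That choice rests on calls in these same data and set no direction. Intervals of 1 chromosome were left out of it. Each median is over the probes of the interval, which were read on the same arrays and are not replicates. Whether they detect the same transcript was not tested. On chr12:52944867-52971992 the median of 4 probes was -3.28 and -3.40 at 4h, against -7.02 and -7.49 at 0h, a fitted median change of 3.94 with 3 of 4 called (2 without the block). Those 3 were not well above background at 0h, so the change is not a measured size, and their bounds are at least 2.94-fold to at least 7.07-fold. The uncalled probe, the 1 well above background on both 0h arrays, differed by -0.16 (limma adjusted p = 0.95), so the probes of this interval disagree. On chr16:9129538-9137898 the median was 1.40 and 0.43 at 4h, against -2.96 and -2.74 at 0h, a change of 3.74 with 5 of 5 called, all 5 also without the block. A second interval of that chromosome, chr16:9158862-9162427, had -0.30 and -1.23 at 4h, against -3.73 and -3.36 at 0h, a change of 2.26 with 3 of 3 called (1 without the block). On chr1:52507332-52514490 the median was 4.03 and 2.63 at 4h, against 0.18 and -0.09 at 0h, a change of 3.28 with 3 of 3 called (0 without the block). On chrX:6988942-6998206 it was -3.30 and -4.49 at 4h, against -5.74 and -7.31 at 0h, a fitted change of 2.56 with 3 of 3 called (1 without the block). None of the 3 was well above background on either 0h array, and their bounds are at least 2.01-fold to at least 2.66-fold. On chr6:52046805-52072744 it was -1.28 and -2.26 at 4h, against -3.28 and -3.92 at 0h, a change of 1.58 with 4 of 6 called (0 without the block). On chr9:114412295-114418384 it was 4.99 and 3.82 at 4h, against 3.16 and 2.94 at 0h, a change of 1.36 with 3 of 3 called (0 without the block). On chr8:27912000-27992750 it was 3.44 and 3.01 at 4h, against 2.45 and 2.15 at 0h, a change of 0.92 with 5 of 5 called (0 without the block). With 2 arrays a group, outlying arrays were not tested.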

How the results depend on the processing

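All alternatives used limma, and for 4h against 0h 2508 genes were called with the replicate block. Called genes numbered 498 with no replicate block (225 higher, 273 lower), 711 with a 2-fold minimum (336 higher, 375 lower) and 91 in a fit of only the 4 arrays compared (75 higher, 16 lower). Leaving out 1 array at a time gave 239 to 1864 (151 to 873 higher, 88 to 1057 lower). Under the other alternatives, but for the array assignment given below, it stayed within 1.5 times. Calls shared in direction with the 2508 were 2013 of 2774 with normexp, 1895 of 2021 with median centring and 2161 of 2409 with quantile normalization. They were 1703 of 1759 with no filter, 2490 of 2652 with a filter on the groups compared and 2140 of 2382 with the mean of all probes. The value table shared 2500 of its 2511 calls, but it holds the same intensities within 0.6%. For 4h against 2h, where 83 were called, the count was 1 with no replicate block, 184 with normexp, 360 with median centring, 166 with quantile normalization, 50 with no filter on dim probes, 0 with only the groups compared (3104 at an unadjusted p under 0.05) and 15 to 78 without 1 array. For 8h against 4h, where 1332 were called, it was 176 with no replicate block, 744 with no filter, 419 with a 2-fold minimum, 0 with only the groups compared (3486 unadjusted) and 171 to 1587 without 1 array. For 4h against DMSO, where 3551 were called, it was 1297 with no replicate block, 1043 with a 2-fold minimum, 0 with only the groups compared (3866 unadjusted) and 1277 to 2344 without 1 array. The cause of these moves was not tested, beyond the fewer arrays or the added minimum that define an alternative. Of 88 genes tested one by one at 4h against 0h, 60 kept their side of the threshold with no replicate block and 28 lost it, and none changed direction under any alternative but 1. That alternative takes samples as attached to the scanner files, and the difference is then that of the 2 slides. It called 223 genes with the block (211 higher, 12 lower) and 218 without it (205 higher, 13 lower), and 2 and 0 of them were shared in direction with the 2508. It called 0 and 0 at 4h against 2h (238 and 169 unadjusted), 5 and 5 at 8h against 4h, and 207 and 180 at 4h against DMSO. The log2 differences of the genes that changed direction under it were Ackr3 1.29, Aldh1a3 -0.71, Arc -1.03, Ascl2 0.73, Bmp4 -1.41, Ccnd2 -0.97, Cdx2 -0.21, Cyth4 -0.05, Ddx21 -0.58, Dhrs3 0.35, Dusp2 -0.04, Dusp4 -1.23, Dusp5 -0.47, Dusp6 -1.0, Dusp7 0.25, Efnb1 0.49, Egr1 -0.90, Egr2 -0.80, Elf3 1.04, Etv1 -0.59, Etv4 -1.33, Etv6 -0.34, Evx1 -0.93, Fos -0.70, Fosl1 -0.22, Foxf1 -0.22, G0s2 0.57, Gbx2 -1.09, Gm13889 -0.25, Hand1 -0.07, Hbegf -0.85, Hoxb13 1.08, Id1 -0.65, Id2 0.35, Id3 -0.50, Idi1 -0.15, Klf5 -0.71, Lor -1.12, Lrig1 0.77, Manba -0.82, Me1 -0.29, Myc -0.98, Nanog 0.23, Neurog3 1.90, Nod1 0.07, Nppb -0.96, Pdgfrb 0.26, Phlda1 -0.79, Plaur -0.90, Plekhg6 0.50, Pmaip1 -0.43, Pou3f1 -0.91, Pou5f1 -0.36, Ptger2 -0.09, Ptgs2 -0.41, Rasal1 0.15, Rhob 0.51, Rrs1 -0.37, Sc5d -0.25, Sgms2 -0.64, Slc26a2 -0.51, Sox2 -0.01, Spic 1.29, Spry4 -0.44, Tgfbr2 -0.24, Timp2 0.38, Trib1 -0.97, Twist1 -0.93, Utf1 -0.64, Vgf -0.01, Wnt3 0.71, Wt1 -0.75, Zfp36 -0.02, Zfp36l1 -0.52, the same with and without the block. The slide as a random block could not be fitted there, since the attached groups hold the slides whole, and a plain fit was used. Signal over background limits the dim genes, and bounds are given where 1 group alone had no array well above background.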
